A study of Mus musculus with 2 samples.

Results

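Droplets that captured no cell still collect RNA that floats free in the cell suspension, and the barcodes of such droplets give the profile of RNA outside cells. Here the barcodes of 2 Drop-seq libraries were divided by their number of unique molecular identifiers (UMIs), each of which marks 1 captured transcript molecule. Barcodes with 1 to 100 UMIs were taken as empty droplets, and barcodes with at least 500 UMIs and at least 100 genes were taken as cells. This gave 9069 empty droplets and 320 cells among the 9999 barcodes of the KO LPS library, and 4267 empty droplets and 1427 cells among the 9999 barcodes of the WT LPS library, out of 19998 barcodes in all. For each gene, the UMIs were summed over the empty droplets and over the cells of the same library and divided by the total of each pool. Levels are given as UMIs per 1000000 UMIs of the pool (CPM).

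The KO LPS library came from PARK7/DJ-1 knock-out mice of a gene-trap line that had been crossed to C57BL/6NCrl for at least 10 generations, and the WT LPS library came from wildtype littermates, all 3 to 4 months old. Both groups had received lipopolysaccharide (LPS), a bacterial cell wall component that triggers systemic inflammation, at 4 µg per g of body weight into the peritoneum, and brains were taken after 24 h. CD11b+CD45int cells, the gate for microglia, were sorted from pooled brains of 1 female and 1 male mouse per group. Each genotype therefore had 1 library, and no untreated library was used here. With 1 library per genotype there is no test, and intervals (95%, exact) cover counting error only. Genotype and library cannot be told apart, so a difference between the libraries is given as that and no more.

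Microglia are the resident macrophages of the brain. In droplet methods free RNA is generally held to come from cells that broke during tissue dissociation, sorting or loading, and beads with poly(T) primers capture it along with the RNA of intact cells. Messenger RNAs of the cytosol, RNAs kept in the nucleus and RNAs enclosed in mitochondria differ in where they sit in a cell, and the mitochondrial ribosomal RNAs, 12S (mt-Rnr1) and 16S (mt-Rnr2), are among the most abundant transcripts of a cell.

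The genes were ordered by the smaller of their 2 ratios of level outside cells to level in cells. Of the first 12, 5 are short or ribosomal noncoding RNAs, and their sequences are shown because RNAs of this kind carry at most a short poly(A) tail. The sequences were read by gene symbol from GENCODE vM39 transcripts (GRCm39). For the ribosomal RNAs the 30 bases with most adenines are printed, bases 646 to 675 of 955 of mt-Rnr1 (chrM:70-1024, plus strand) and bases 386 to 415 of 1582 of mt-Rnr2 (chrM:1094-2675, plus strand). The mitochondrial valine tRNA mt-Tv (chrM:1025-1093, plus strand) and the small nucleolar RNAs Snord42a (chr11:78072125-78072189, minus strand) and Snord49b (chr11:62493905-62493976, plus strand) are printed whole. Capitals mark the longest run of adenines (for Snord42a the first of 2 equally long runs). Priming by poly(T) at these runs was not tested.
mt-Rnr1: taaagtaagcaaaagaatcaaacatAAAAA
mt-Rnr2: aaacttgctAAAAAAAcaacaaaatcaaaa
mt-Tv: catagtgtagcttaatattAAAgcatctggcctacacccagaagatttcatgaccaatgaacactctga
Snord42a: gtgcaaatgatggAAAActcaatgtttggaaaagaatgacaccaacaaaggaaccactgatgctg
Snord49b: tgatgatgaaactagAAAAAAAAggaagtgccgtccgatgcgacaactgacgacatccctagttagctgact
Such stretches were common. A run at least as long as that of mt-Rnr1 (5 bases) stood in 91.1% of the 6304 transcripts examined, one as long as that of mt-Rnr2 (7 bases) in 51.5% and one as long as that of Snord49b (8 bases) in 36.2%. A window of 30 bases with at least 20 adenines, as in both ribosomal RNAs, stood in 39.2%. Such stretches thus stood in many other transcripts as well. Most of those were longer than the RNAs printed (median 3.53 kb for protein-coding genes compared in WT LPS). A longer transcript can hold such a stretch more often by its length alone. The shares were not matched for length, so they do not show how common such stretches are in RNAs of this size.

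The empty droplets of the 2 libraries differed in depth. In KO LPS they had a median of 18 UMIs (quartiles 11 and 28) and a median of 15 genes, and they held 198723 UMIs, 29.0% of the library. In WT LPS they had a median of 75 UMIs (quartiles 62 and 87) and a median of 56 genes, and they held 315748 UMIs, 10.3% of the library. The KO LPS cells had a median of 963.5 UMIs and 381305 UMIs in total, and the WT LPS cells a median of 1065 and a total of 1989011. Left out were the barcodes between both pools, 443 in the KO library and 4302 in the WT library, and 167 and 3 barcodes with no UMI. Both matrices stop at the same number of barcodes, so that the empty droplets analysed may not be all that were made. Only 11 barcodes occurred in both libraries, none of them a cell in both. In KO LPS, 276 empty barcodes (3.04%, with 9104 UMIs) differed by 1 base from the barcode of a cell, against 17 (0.398%) in WT LPS.

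**Figure D1:**
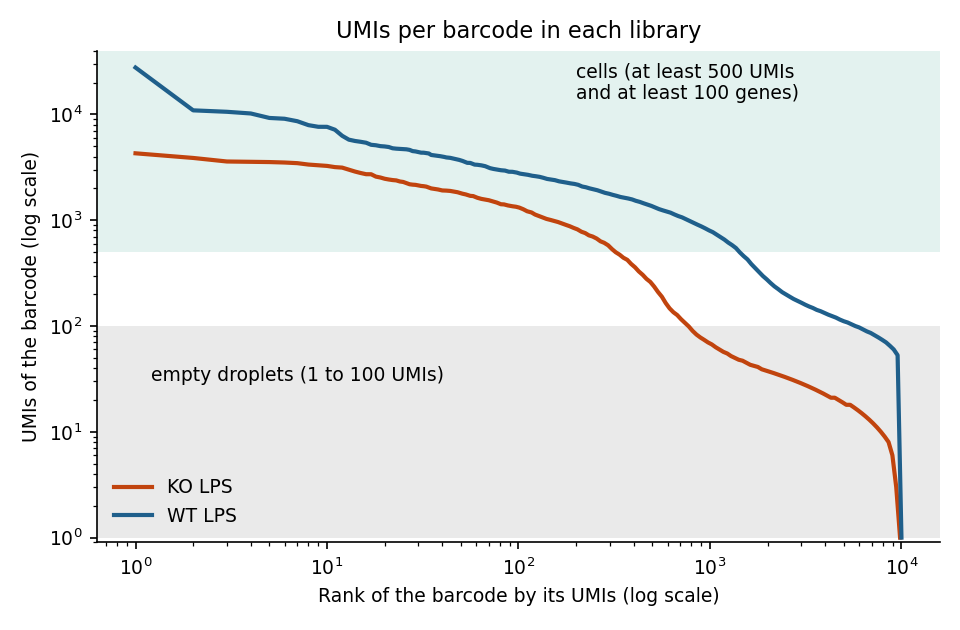
UMIs of each barcode (vertical axis, log scale) against its rank (horizontal axis, log scale) in the KO LPS and WT LPS libraries, with the ranges of empty droplets (grey) and of cells (green) shaded. The KO LPS curve passes from cells to empty droplets within 443 barcodes, whereas in WT LPS 4302 barcodes lie between both ranges and the quartiles of the empty droplets are 62 and 87 UMIs.

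Park7, the gene that is inactivated in the knock-out, had 2 UMIs in the empty droplets and 1 UMI in the cells of KO LPS. In WT LPS it had 30 UMIs in 29 empty droplets and 323 UMIs in 248 cells, and its level outside cells was 0.585 times that in cells (0.388 to 0.852). Both pools of the knock-out library thus nearly lacked the gene. The cells carried the markers of the labelled cell type. The 19 homeostatic microglial genes made up 7.80% of the UMIs of the KO LPS cells and 5.86% of those of the WT LPS cells. No list of another cell type held more than 0.222% of the UMIs of cells (choroid plexus, KO LPS). All 19 genes were also seen in the empty droplets of both libraries.

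Most genes were within 2-fold of their level in cells. A gene was compared if it had at least 50 UMIs over both pools, and it was called higher or lower if the ratio of its levels, with 0.5 UMI added to each sum, was past 2-fold. In KO LPS, 23 of 2313 genes (0.994%) were higher outside cells and 84 (3.63%) were lower. In WT LPS, 117 of 6454 genes (1.81%) were higher and 1289 (20%) were lower. The median log2 ratio of all genes compared was -0.08 in KO LPS and -0.26 in WT LPS. Levels are shares of a total, so that a gain of the mitochondrial rRNAs lowers the level of every other gene. With totals that left out the mitochondrially encoded genes the median moved by 0.07 to -0.01 in KO LPS and by 0.17 to -0.10 in WT LPS, and WT LPS then had 246 genes higher and 995 lower, a share of 19.8% of calls that were higher against 8.32% before. With the ratios centred on the median, WT LPS had 339 higher and 842 lower (28.7%). A gene at equal level had a median expectation of 31.2 UMIs outside cells in KO LPS and of 19.3 in WT LPS, and the counts of WT LPS fell to 40 higher and 575 lower among genes that expect at least 20, a filter added after seeing the data.

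Of 2287 genes compared in both libraries, 4 (0.175%) were higher outside cells in both and 55 (2.40%) were lower in both. The 4 were 25% of the 16 such genes called higher in KO LPS and 9.30% of the 43 in WT LPS. The 55 were 66.3% of the 83 called lower in KO LPS and 20.8% of the 264 in WT LPS. Ttr was called in opposite directions. Of the calls shared by both libraries 6.78% were higher, and 21.6% (8 higher and 29 lower) with centred ratios. Across genes, the log2 ratios of the libraries had a Spearman correlation of 0.473 (n = 2287 genes). It was 0.699 over the 418 genes with at least 200 UMIs in each library and 0.773 over the 105 with at least 500. Both libraries share the mouse strain, the gate and the method, and genes are not independent replicates.

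**Figure D2:**
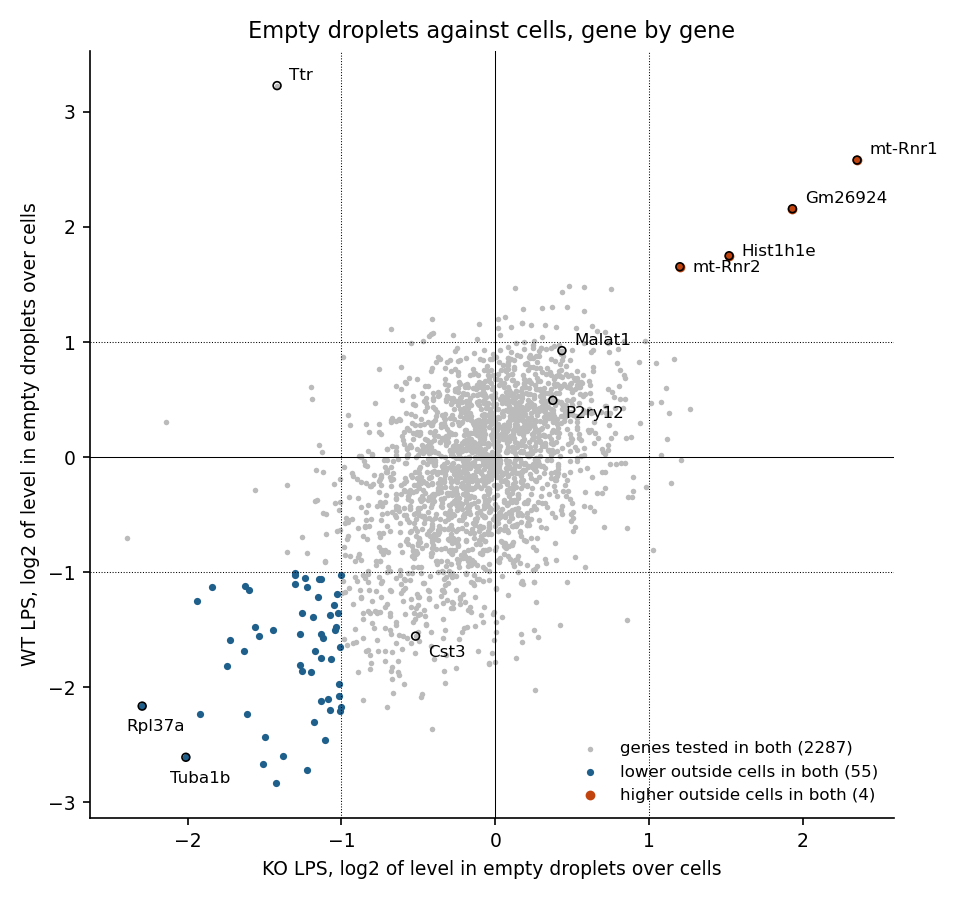
Log2 of the level in empty droplets over that in cells for the 2287 genes compared in both libraries, KO LPS on the horizontal and WT LPS on the vertical axis, each point 1 gene and dotted lines at 2-fold. The 4 genes higher in both (red) stand apart at the upper right, the 55 lower in both (blue) at the lower left, and Ttr alone at the upper left.

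The 4 genes higher outside cells in both libraries were mt-Rnr1, Gm26924, Hist1h1e and mt-Rnr2, and no messenger RNA of microglial function was among them. mt-Rnr1 had 2437 UMIs in the empty droplets and 916 in the cells of KO LPS, and 6882 and 7243 in WT LPS. Its level outside cells was 5.10 times that in cells (4.73 to 5.51) in KO LPS and 5.99 times (5.79 to 6.19) in WT LPS. mt-Rnr2 had 13454 and 11240 UMIs in KO LPS and 40311 and 80666 in WT LPS, which gave 2.30 times (2.24 to 2.36) and 3.15 times (3.11 to 3.19). Together both mitochondrial rRNAs rose from 3.19% of the UMIs of cells to 7.997% of those of empty droplets in KO LPS, and from 4.42% to 14.9% in WT LPS. mt-Rnr1 gained more than mt-Rnr2 in each library, so that both rRNAs of 1 genome differed in their gain.

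Gm26924, a gene model that the annotations used here did not hold, had 1233 and 620 UMIs in KO LPS, a ratio of 3.82 (3.46 to 4.21). In WT LPS it had 1758 and 2481 UMIs and a ratio of 4.46 (4.2 to 4.75). Hist1h1e encodes a linker histone and is now named H1f4. It had 66 and 44 UMIs in KO LPS, which is 2.88 times the level in cells (1.94 to 4.32), and 98 and 184 UMIs in WT LPS, which is 3.36 times (2.60 to 4.31). Its UMIs lay in 60 empty droplets of KO LPS and 91 of WT LPS, with at most 2 and 3 in any of them, so that no few barcodes carried the gain. With empty droplets of 1 to 50 UMIs, 333 barcodes in WT LPS, its log2 ratio there fell from 1.75 to 0.17, and it was no longer called in that library. Of the other histone genes, Hist1h1c had a log2 ratio of -0.69 in KO LPS (10 and 32 UMIs, under the minimum) and of 1.11 in WT LPS (13 and 39). Hist1h2bc had -0.48 and -1.01. These histone genes were looked up after the values of Hist1h1e were seen, and Hist1h1e overlaps H2bc6 in the annotation, so that reads of both may not be parted.

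The list of mitochondrially encoded genes, rRNAs and mRNAs together, had a summed ratio of 2.23 (2.18 to 2.28) in KO LPS and 3.03 (2.99 to 3.06) in WT LPS, with medians over genes of -0.37 and 0.08 on the log2 scale. It was split into rRNAs and mRNAs, and the tRNAs were added, after the values were seen. The messenger RNAs did not share the higher level of the rRNAs outside cells. Their summed level outside cells was 0.802 times that in cells (0.744 to 0.864) in KO LPS and 0.823 times (0.784 to 0.864) in WT LPS. None of the 6 compared in KO LPS and of the 7 in WT LPS was called higher (against 0.994% and 1.81% of all genes), and mt-Nd4 alone was called lower, in WT LPS (against 20%), counts too small to be set apart from those shares. mt-Nd4, a subunit of respiratory complex I, had 78 UMIs outside and 257 in cells of KO LPS (log2 ratio -0.77) and 107 and 1514 in WT LPS (-1.16). mt-Co1, the core subunit of complex IV, had 59 and 161 in KO LPS (-0.50) and 82 and 1004 in WT LPS (-0.95). mt-Cytb of complex III had -0.78 and -0.94 and mt-Nd1 had -0.50 and -0.71, whereas mt-Nd5 lay at 0.16 and 0.48. Relative to the median gene, the log2 value of their sum was -0.24 in KO LPS and -0.02 in WT LPS, so that the WT LPS sum stood at the level of a typical gene. The single mRNAs mostly did not, since their median log2 ratio was -0.50 in KO LPS and -0.71 in WT LPS, against -0.08 and -0.26 for all genes. Of the 11 mRNAs in the table, mt-Nd4l, mt-Co2, mt-Co3 and mt-Atp6 had at most 3 UMIs over both pools of either library.

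The mitochondrial tRNAs went both ways. mt-Tv had 42 and 41 UMIs in KO LPS (ratio 1.97, 1.25 to 3.10) and 16 and 51 in WT LPS (1.98, 1.05 to 3.52), and mt-Tl2 had log2 ratios of 1.28 (28 and 22 UMIs) and of 1.2 (7 and 20 UMIs). mt-Tm was lower outside cells, with 27 and 106 UMIs in KO LPS (-1.01) and 7 and 185 in WT LPS (-1.97). The summed tRNAs had a ratio of 1.01 (0.857 to 1.19) in KO LPS and of 1.03 (0.829 to 1.27) in WT LPS.

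The next genes in the order were higher outside cells by less than 2-fold in at least 1 library. The small nucleolar RNA Snord49b had 536 UMIs outside and 538 in cells of KO LPS (1.91 times, 1.69 to 2.16) and 296 and 1051 in WT LPS (1.77 times, 1.55 to 2.02). Snord42a had 80 and 86 UMIs in KO LPS (1.78, 1.30 to 2.45) and 69 and 217 in WT LPS (2.00, 1.5 to 2.64). Snord42a lies within Rpl23a and Snord49b within 2410006H16Rik, and their counts may hold host transcripts. Among messenger RNAs, Taf3, a subunit of the general transcription factor TFIID, had ratios of 2.24 (1.25 to 4.03) and 1.79 (1.23 to 2.55), and Upf2, which acts in nonsense-mediated decay, had 1.73 (1.14 to 2.62) and 1.91 (1.45 to 2.49). Ppp2r2d, 5830418K08Rik (now Cep295) and Arfgef1 had ratios from 1.68 to 2.07. Each of these rested on 28 to 81 UMIs outside cells.

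Malat1, a nuclear long noncoding RNA, was the most abundant RNA outside cells after mt-Rnr2. It had 12080 UMIs outside and 17170 in cells of KO LPS, 1.35 times the level in cells (1.32 to 1.38), and 24699 and 81928 in WT LPS, 1.90 times (1.87 to 1.93). Neat1, the scaffold of nuclear paraspeckles, had 27 and 49 UMIs in KO LPS (1.06, 0.635 to 1.73) and 59 and 470 in WT LPS (0.791, 0.593 to 1.04), so that its intervals include 1 in both. Of the list of nuclear-retained noncoding RNAs, 0 of 3 compared in KO LPS (against 0.994% of all genes) and 1 of 5 in WT LPS (against 1.81%) were called higher. The 1 was Meg3, an imprinted RNA of neurons, with 111 UMIs outside and 114 in cells of WT LPS, a ratio of 6.13 (4.68 to 8.04). In KO LPS Meg3 had 20 and 13 UMIs, a ratio of 2.95 (1.40 to 6.46), and all 13 UMIs of the cells lay in 1 cell.

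**Figure D3:**
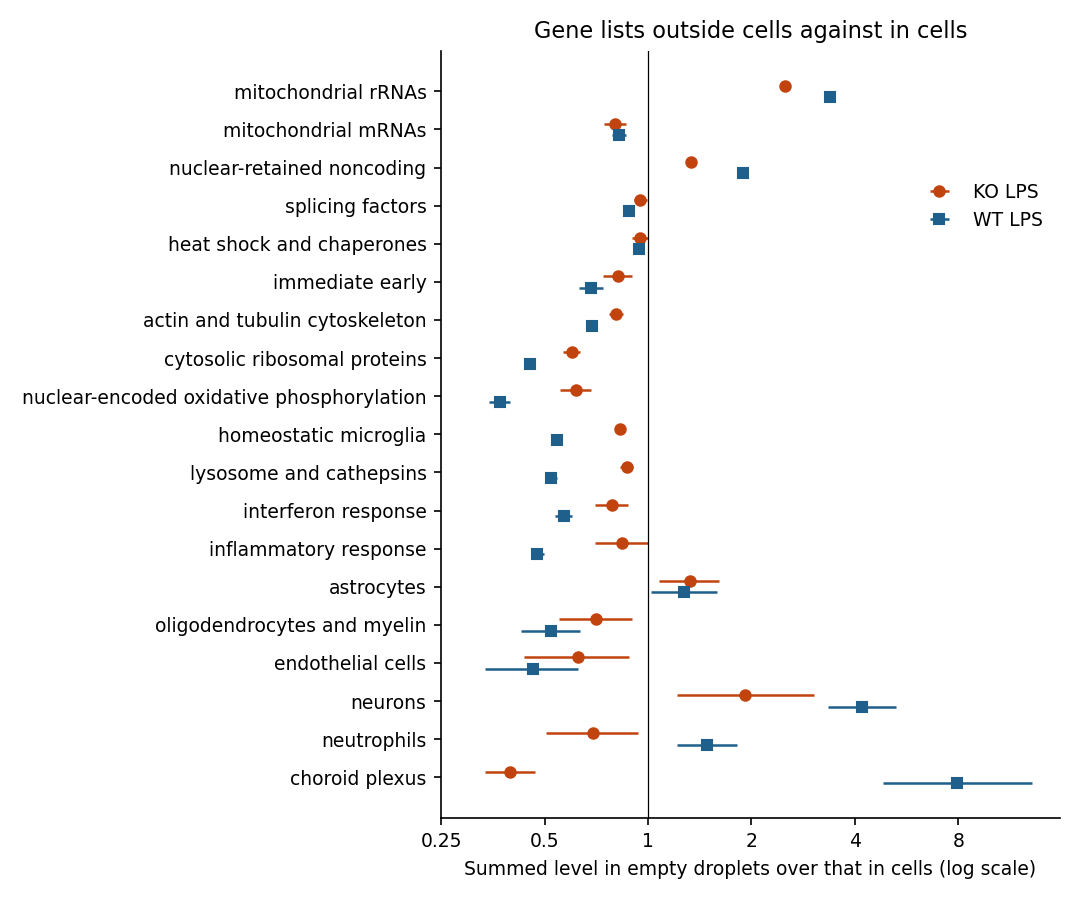
Summed level of each gene list in empty droplets over that in cells (horizontal axis, log scale), KO LPS as circles and WT LPS as squares, with exact 95% intervals for counting error. The mitochondrial rRNAs lie at 2.51 and 3.38 and the ribosomal proteins at 0.600 and 0.453, and for choroid plexus and neutrophil genes the intervals of both libraries lie on opposite sides of 1.

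The 10 genes lowest outside cells in both libraries included 4 ribosomal protein genes. Rpl37a, a protein of the large ribosomal subunit, had 9 UMIs outside and 89 in cells of KO LPS, 5.15 times higher in cells (2.60 to 11.6), and 28 and 804 in WT LPS, 4.56 times higher (3.13 to 6.90). Tuba1b, an alpha-tubulin, had 9 and 73 UMIs in KO LPS (4.23 times higher in cells, 2.11 to 9.61) and 15 and 595 in WT LPS (6.30 times, 3.79 to 11.3). Cox8a, a subunit of complex IV encoded in the nucleus, had 8 and 46 in KO LPS (3.0 times, 1.40 to 7.35) and 12 and 501 in WT LPS (6.63 times, 3.76 to 12.9). The KO LPS values of all 3 rest on fewer than 10 UMIs outside cells. The other genes lowest in both were Cmtm7, Rps18, Rpl38, Rpl37, Emc3, Tcn2, which carries vitamin B12, and the processed pseudogene Gm17087, with levels 2.87 to 5.51 times higher in cells.

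The ribosomal proteins moved as a group. None of the cytosolic ribosomal protein genes was called higher (against 0.994% and 1.81% of all genes), and 14 of 44 compared were lower in KO LPS (31.8%, against 3.63% of all genes) and 55 of 75 in WT LPS (73.3%, against 20%). Their median log2 ratio was -0.81 in KO LPS and -1.48 in WT LPS. Their summed share of UMIs was 0.790% outside and 1.32% in cells of KO LPS, and 1.17% and 2.58% in WT LPS. Rps25 stood highest by the mean of both libraries, with 51 and 100 UMIs in KO LPS (ratio 0.979, 0.684 to 1.38) and 146 and 932 in WT LPS (0.987, 0.823 to 1.18). Many ribosomal protein genes have processed pseudogenes, with which they can share reads. Over processed pseudogenes of all kinds, 2 of 3 compared were lower in KO LPS (against 3.63% of all genes, median log2 -1.20) and 24 of 36 in WT LPS (66.7%, against 20%, median -1.22).

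Nuclear genes for oxidative phosphorylation were lower outside cells as well, 3 of 18 in KO LPS (16.7%, against 3.63% of all genes, median -0.60) and 37 of 46 in WT LPS (80.4%, against 20%, median -1.36), and none was higher (against 0.994% and 1.81%). Their summed level was 1.62 times higher in cells (1.47 to 1.80) in KO LPS and 2.70 times (2.52 to 2.90) in WT LPS. Cox7c of complex IV stood highest by that mean, with 19 and 43 UMIs in KO LPS (-0.22) and 28 and 238 in WT LPS (-0.41). Genes of the actin and tubulin cytoskeleton were lower in 2 of 15 (13.3%, against 3.63%) in KO LPS (median -0.45) and in 11 of 22 (50%, against 20%) in WT LPS (median -0.98). Arpc5 of the actin-branching Arp2/3 complex stood highest by that mean, at -0.03 and -0.17.

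The summed levels of splicing factors and of chaperones were close to those in cells, and their direction turned with the scaling. Splicing factors had a summed log2 ratio of -0.08 in KO LPS and -0.18 in WT LPS, which became 0.01 and 0.08 relative to the median gene. Heat shock and chaperone genes had -0.08 and -0.09, which became 0.00 and 0.18. The medians over genes were -0.14 in both libraries for splicing factors, and -0.06 in KO LPS and -0.54 in WT LPS for chaperones, against -0.08 and -0.26 for all genes. In WT LPS 2 of 16 chaperones were called lower (12.5%, against 20% of all genes) and none higher (against 1.81%). Hspa5 and Hsp90b1 had more UMIs than any other chaperone in every pool. Without them, a check added after seeing the data, the sum was 0.890 times that in cells (0.823 to 0.961) in KO LPS and 0.695 times (0.667 to 0.723) in WT LPS. Within the lists, Luc7l2, a factor of the U1 particle, had 211 and 350 UMIs in KO LPS (ratio 1.16, 0.970 to 1.38) and 286 and 1280 in WT LPS (1.41, 1.23 to 1.60), whereas Srsf3 had log2 ratios of -0.34 and -1.57. Hspa5, the chaperone of the endoplasmic reticulum, had ratios of 1.06 (0.944 to 1.19) and 1.21 (1.15 to 1.27), and the cytosolic Hspa8 had 0.486 (0.357 to 0.653) and 0.436 (0.371 to 0.510). Immediate early genes were lower in 1 of 10 (KO LPS, against 3.63% of all genes) and 5 of 15 (WT LPS, 33.3% against 20%). Zfp36, which destabilises cytokine mRNAs, was lower in both (-1.02 and -1.35), and Klf6 was not (0.24 and 0.20).

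The ratio followed the size of the gene. Among protein-coding genes, the log2 ratio rose with the length of the gene from first to last exon, with a Spearman correlation of 0.295 in KO LPS (2230 genes) and 0.522 in WT LPS (6144 genes), given as a description across genes. For the length of the 1 transcript per gene that the annotation marks as canonical it was 0.338 and 0.557. The genes were then split into 10 groups of equal size by span. In the group of shortest span (median 3.94 kb in WT LPS) the median log2 ratio was -1.06 and 52.4% were called lower, and in that of longest span (median 161.8 kb) it was 0.30, with 1.79% lower and 5.20% higher. In KO LPS the same end groups had medians of -0.41 and 0.07, with 13.5% and 0.448% lower. Short genes were thus the lower ones in both libraries, by less in KO LPS. Genes lower outside cells had a median span of 10.4 kb in KO LPS and 11.6 kb in WT LPS, against 39.2 kb and 28.1 kb for all genes compared, and those higher in WT LPS had 71.4 kb. For the genes higher in KO LPS the length check is void, because only 15 of the 23 (65.2%) matched the annotation.

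Transcript length and gene span each went with the ratio. In each of 5 groups of equal size by transcript length, genes of longer span had the higher median log2 ratio in both libraries, such as -0.80 against -1.13 in the group of shortest transcripts of WT LPS and 0.40 against 0.07 in the longest. In KO LPS the same medians were -0.29 against -0.47 and 0.10 against 0.03. Examples of long genes higher outside cells in WT LPS were Usp34, a deubiquitinase, with 166 and 427 UMIs (1.29), Arhgap5, a GTPase-activating protein, with 480 and 1303 (1.22), and Vps13a with 63 and 144 (1.47). In KO LPS the same genes had log2 ratios of 0.30, 0.06 and 0.13. These genes were chosen after their values were seen.

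**Figure D4:**
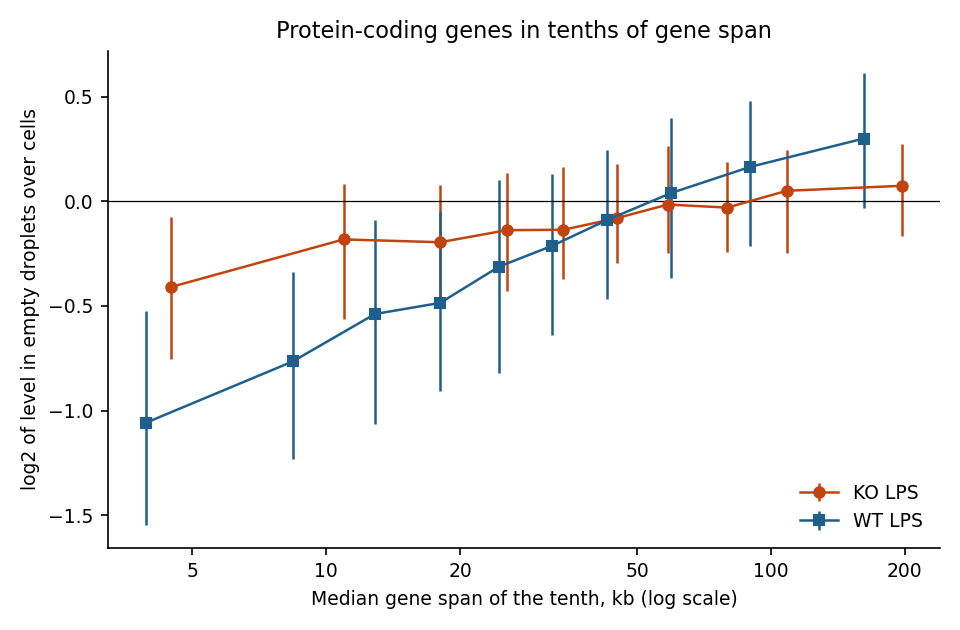
Median log2 of the level in empty droplets over that in cells (vertical axis) for protein-coding genes in 10 groups by gene span (horizontal axis, kb, log scale), with bars from the lower to the upper quartile of genes. The median rises from -1.06 to 0.30 in WT LPS (squares) and from -0.41 to 0.07 in KO LPS (circles).

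The 19 homeostatic microglial genes were represented outside cells. Their sum fell from 7.80% of UMIs in cells to 6.46% outside in KO LPS, and from 5.86% to 3.18% in WT LPS. In KO LPS 0 of 19 were called in either direction (against 0.994% of all genes higher and 3.63% lower, with a median log2 of -0.28), and in WT LPS 6 of 19 were lower (31.6%, against 20% of all genes, with a median of -0.55 against -0.26). Cst3, the protease inhibitor cystatin C, had 3417 and 9391 UMIs in KO LPS (ratio 0.698, 0.671 to 0.726) and 1770 and 32789 in WT LPS (0.340, 0.324 to 0.357). C1qc of the complement component C1q had 0.710 (0.634 to 0.793) and 0.330 (0.299 to 0.364). P2ry12, the purinergic receptor of resting microglia, went the other way in both libraries, with 988 and 1463 UMIs in KO LPS (1.30, 1.19 to 1.41) and 180 and 807 in WT LPS (1.41, 1.19 to 1.65). Gpr34, another receptor, had intervals that include 1, with 0.909 (0.789 to 1.05) and 0.778 (0.568 to 1.05).

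Inflammatory response genes were compared mainly in WT LPS, since most were too rare in KO LPS. In WT LPS 16 of 28 were lower outside cells (57.1%, against 20% of all genes) and none was higher (against 1.81%), with a median of -1.08, and their sum was 0.694% of UMIs outside and 1.46% in cells. In KO LPS 4 genes reached 50 UMIs and none was called (against 0.994% of all genes higher and 3.63% lower), and the sums were 0.0931% and 0.111%, so that the KO LPS free RNA held as little of this list as the KO LPS cells did. Saa3, an acute-phase protein, had 416 UMIs in 384 empty droplets and 8367 UMIs in 583 cells of WT LPS, a ratio of 0.313 (0.283 to 0.346). In KO LPS it had 6 UMIs in 5 empty droplets and none in 320 cells. The exact interval puts the KO LPS level outside at 2.26 times or more of that in the cells, and a floor of 3 counts in the cells gives 3.84 times. Lcn2, an iron-scavenging protein, had 58 and 885 UMIs in WT LPS (0.413, 0.311 to 0.539) and none in either pool of KO LPS. Il1r2, the decoy receptor of interleukin-1, had 41 and 577 in WT LPS (0.448, 0.318 to 0.615) and 1 and 0 in KO LPS. Msr1, a scavenger receptor, differed from these with 561 and 3153 UMIs in WT LPS (1.12, 1.02 to 1.23) and 4 and 2 in KO LPS.

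Among the inflammatory response genes compared in both libraries, Cd14 stood lowest and Nfkbia highest by the mean of both. Cd14, the LPS co-receptor, had ratios of 0.872 (0.547 to 1.36) in KO LPS and 0.357 (0.272 to 0.460) in WT LPS. Nfkbia, the inhibitor of NF-kB, had 1.19 (0.824 to 1.70) and 0.746 (0.655 to 0.845). Among interferon-response genes 0 of 4 (KO LPS, against 3.63% of all genes) and 9 of 27 (WT LPS, 33.3% against 20% of all genes) were lower, and by the mean of both libraries they ran from Bst2, a membrane tether of viruses, at -0.72 and -1.68 to Herc6 at -0.08 and 0.33. Among lysosomal genes 0 of 20 (against 3.63% of all genes) and 7 of 20 (35% against 20%) were lower, and they ran from Psap, a precursor of sphingolipid activators, at -0.81 and -1.72 to Lamp2 at 0.10 and -0.48. None of the genes of either list was called higher, against 0.994% and 1.81% of all genes.

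Markers of other brain and blood cells made up at most 0.0881% of the UMIs outside cells for any list (choroid plexus, KO LPS), and their ratios rest on few UMIs. The astrocyte list had 170 UMIs outside and 247 in cells of KO LPS (ratio 1.32, 1.08 to 1.61) and 99 and 489 in WT LPS (1.28, 1.02 to 1.59), led by the glutamate transporter Slc1a3 with 1.45 (1.06 to 1.97) and 1.51 (1.14 to 1.98). Without Slc1a3, a check added after seeing the data, the other 16 genes had 93 and 145 UMIs in KO LPS (1.23, 0.938 to 1.61) and 32 and 210 in WT LPS (0.960, 0.640 to 1.40), both with intervals that include 1. The neuron list had 41 and 41 UMIs in KO LPS (1.92, 1.21 to 3.03) and 131 and 197 in WT LPS (4.19, 3.33 to 5.25), of which Meg3 gave 111 and 114 in WT LPS and 20 and 13 in KO LPS, and Camk2a gave 16 of the 41 outside cells in KO LPS. Without Meg3, a check added after seeing the data, the list had 21 and 28 UMIs in KO LPS (1.44, 0.777 to 2.63) and 20 and 83 in WT LPS (1.52, 0.882 to 2.50), and without Camk2a as well 5 and 21 in KO LPS (0.457, 0.135 to 1.24), all with intervals that include 1. The KO LPS direction of the neuron list turned (log2 -0.28) with empty droplets of 51 to 100 UMIs. Oligodendrocyte genes were lower outside cells, at 0.705 (0.550 to 0.898) and 0.522 (0.427 to 0.632), with Trf at -0.70 and -0.95, and endothelial genes likewise at 0.626 (0.437 to 0.882) and 0.462 (0.335 to 0.624), with Bsg at -0.35 and -0.99. For mural cells, ependymal cells, monocytes, border macrophages, lymphocytes and erythroid cells the pools held from 0 to 27 UMIs outside cells. Of those, only the ratios of the erythroid list (6 and 6 UMIs) and of the B lymphocyte list (5 and 116 UMIs) in WT LPS had intervals without 1.

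The choroid plexus and neutrophil lists went in opposite directions in the libraries. The choroid plexus list, the secretory epithelium of the ventricles, had 175 UMIs outside and 845 in cells of KO LPS (ratio 0.397, 0.336 to 0.468) and 39 and 31 in WT LPS (7.92, 4.82 to 13.1). Its leading gene Ttr, the thyroid hormone carrier transthyretin, had 138 and 710 UMIs in KO LPS (0.373, 0.308 to 0.448) and 30 and 20 in WT LPS (9.45, 5.19 to 17.6). In KO LPS 1 cell held 646 of the 710 UMIs of cells. Of the empty barcodes of KO LPS, 2 held 25 and 22 Ttr UMIs of 60 and 81, which is 34.1% of all Ttr outside cells, and both differed from the barcode of that cell by 1 base. Without that cell and those 2 barcodes, a check added after seeing the data, Ttr had 91 UMIs outside and 64 in cells of KO LPS and a ratio of 2.71 (1.95 to 3.79), so that both libraries then went the same way. Enpp2, another choroid plexus gene, had 28 and 90 UMIs in KO LPS and 7 and 7 in WT LPS. The same cell held 82 of the 90, and without it and those barcodes Enpp2 had 14 and 8 UMIs (3.34, 1.31 to 9.18) and the whole list 108 and 80 (2.57, 1.91 to 3.48) in KO LPS.

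The largest member of the neutrophil list in both libraries was Csf3r, the G-CSF receptor. In KO LPS all 59 and 164 UMIs of the list came from it, with a ratio of 0.690 (0.504 to 0.935), and in WT LPS it had 51 of 124 UMIs outside and 384 of 525 in cells (0.837, 0.612 to 1.12). In WT LPS S100a9 had 36 and 45 UMIs (ratio 5.04, 3.16 to 7.99) and S100a8 had 26 and 81 (2.02, 1.25 to 3.18), both subunits of calprotectin, the cytosolic protein of neutrophils. In KO LPS neither had a UMI in either pool. The S100a9 UMIs lay in 35 empty droplets with at most 2 in any, and in 16 cells, of which 1 held 23 of the 45. For S100a8, 1 cell held 24 of the 81.

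The gene models Gm10800, Gm10801, Gm10717, Gm26870 and Gm21738 led the KO LPS order and were rare in WT LPS. Gm10800 had 802 UMIs outside and 76 in cells of KO LPS (20.2 times, 16 to 26), Gm10801 had 226 and 12 (36.1 times, 20.3 to 71.0), Gm10717 had 62 and 3 (39.7 times, 13 to 198), and Gm26870 had 75 and 8 (18 times, 8.68 to 43.2). Gm21738 had 56 UMIs outside and none in cells, which is 28.2 times or more by the exact interval and 35.8 times against a floor of 3 counts. In WT LPS Gm10800 had 11 and 6 UMIs (11.5 times, 3.92 to 38.0) and Gm10801 had 6 and 2 (18.9 times, 3.38 to 191), both below the minimum of 50 UMIs for a call but with intervals above 1, and the other 3 had none. The KO LPS UMIs were spread thin, those of Gm10800 over 662 empty droplets with at most 6 in any. The annotations used here did not hold these models, so that their transcripts are not described. Gm26870 was added to the group after its values were seen.

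Some genes differed in ratio between the libraries without such an extreme. With KO LPS given first, Iffo1 (5 and 46, 19 and 99 UMIs), Nr2c2 (13 and 59, 20 and 84) and Prkd3 (13 and 51, 20 and 70) had log2 ratios of -2.14, -1.20 and -0.99 in KO LPS and of 0.30, 0.61 and 0.87 in WT LPS. In the other direction, Dennd1c (21 and 34, 3 and 89 UMIs) had 0.26 and -2.02, and Tspan13 (32 and 34, 4 and 75) had 0.85 and -1.41. Rgs19 (15 and 39, 6 and 210) had -0.41 and -2.36, and Arf4 (21 and 37, 10 and 221) had 0.14 and -1.74. Each of these genes had fewer than 35 UMIs outside cells in either library, and Dennd1c, Tspan13, Rgs19 and Arf4 had 10 or fewer in WT LPS. The lowest genes of WT LPS had no UMI outside cells. They were Gm4950 with 77 UMIs in cells, Nhp2l1 (now Snu13) with 73, Shmt2 with 54 and Gm8225 with 53, whose levels in cells are at least 3.23, 3.06, 2.25 and 2.20 times higher by the exact intervals, and 4.07, 3.86, 2.86 and 2.80 times against a floor of 3 counts. In KO LPS 2810004N23Rik was the lowest, with 5 and 55 UMIs, and had 32 and 333 in WT LPS.

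The shift from the empty to the cell profile came at different depths. In WT LPS the mitochondrial rRNAs held 15.04% of the UMIs in barcodes of 51 to 100 UMIs, 15.13% above 100 and up to 250, 9.56% above 250 and under 500, and 4.42% in cells, so that the 3629 barcodes from above 100 to 250 UMIs, which entered neither pool, had the level of empty droplets. In KO LPS they held 7.66% at 1 to 20 UMIs, 8.13% at 21 to 50 and 8.19% at 51 to 100, then 5.38% up to 250 and 3.15% under 500, against 3.19% in cells. Of the 443 KO LPS barcodes between the pools, 106 (23.9%) differed by 1 base from a cell barcode, against 49 of 4302 (1.14%) in WT LPS. Without such barcodes, a check added after seeing the data, the KO LPS rRNAs held 8.81% at 51 to 100 UMIs, 6.49% up to 250 and 3.22% under 500. Ribosomal proteins ran the opposite way, from 1.17% at 51 to 100 UMIs through 1.49% above 250 to 2.58% in cells of WT LPS. In KO LPS they stayed between 0.782% and 0.893% in all classes under 500 UMIs and were 1.32% in cells. The 5 gene models fell with depth in KO LPS, from 0.792% at 1 to 20 UMIs through 0.584%, 0.407% and 0.135% to 0.0281% in the class above 250 and 0.0260% in cells. In WT LPS they held 0.00564% at 51 to 100 UMIs (17 UMIs), 0.00726% in the next class, 0.00297% above 250 and 0.00040% in cells (8 UMIs).

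**Figure D5:**
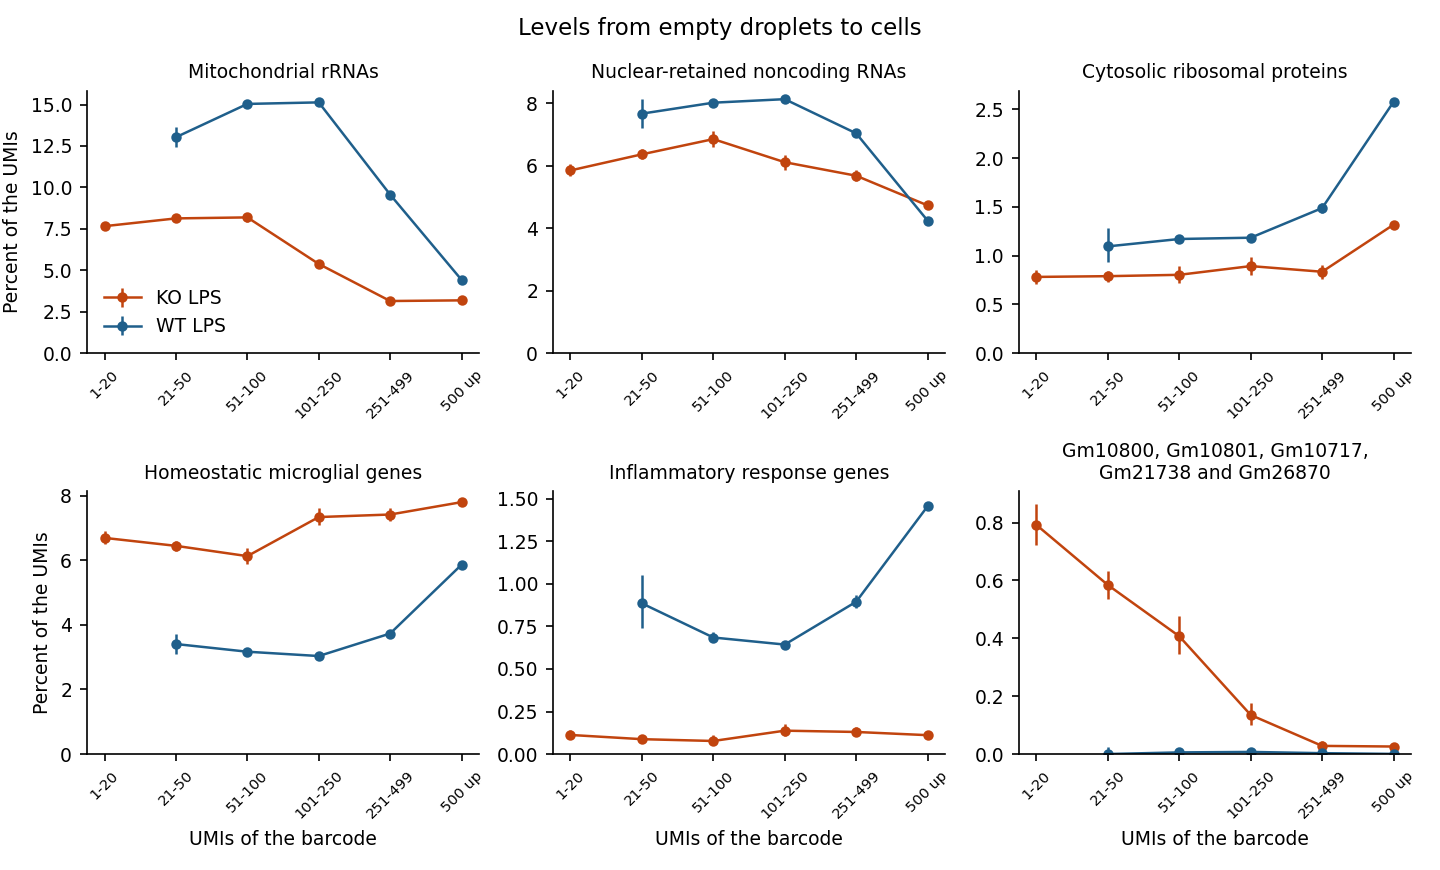
Percent of the UMIs of each depth class of barcodes (horizontal axis, UMIs of the barcode) that came from 6 gene groups, in KO LPS and WT LPS, with exact 95% intervals for counting error and classes of under 20 barcodes left out. The mitochondrial rRNAs hold 15.04% and 15.13% in WT LPS barcodes of 51 to 100 UMIs and of the next class and fall in KO LPS from 8.19% to 5.38%, and the 5 gene models fall with depth in KO LPS and lie at 0.00726% or less in the WT LPS classes shown.

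Shares were also taken in single empty droplets. Among barcodes of 51 to 100 UMIs that were not 1 base from a cell barcode, the mitochondrial rRNAs held a median of 6.92% of the UMIs of a droplet in KO LPS (522 barcodes, quartiles 3.85% and 11.4%) and of 14.8% in WT LPS (3918 barcodes, quartiles 11.3% and 18.4%). The highest droplets had 34 of 54 UMIs in KO LPS and 35 of 75 in WT LPS, and the lowest had none in either library. The homeostatic microglial genes held a median of 5.26% in KO LPS (quartiles 3.03% and 8.30%) and 2.94% in WT LPS (1.49% and 4.48%). Counting error spreads such shares at these depths. The variance of the rRNA UMIs over these droplets was 5.70 times that of random draws from 1 share in KO LPS and 1.78 times in WT LPS, and that of the homeostatic genes 1.64 and 1.18 times, values that grow with the UMIs per droplet and are given as a description.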

How the data were processed

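CD11b+CD45int cells of 2 libraries, KO LPS and WT LPS, had been run through Drop-seq. The authors deposited raw counts, UMIs per gene and barcode, with no normalization. The submitters' processing notes name bcl2fastq 2.0 and STAR, and mm9 and mm10 with no role, and the counter, annotation and strand are not given in the sources used here. Missing entries (5616 genes in KO LPS and 3036 in WT LPS of 19537) were read as 0. Total UMIs were 684738 and 3063795. No doublet caller was run, and cells also hold free RNA, which draws ratios towards 1.

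Sums over empty droplets (1 to 100 UMIs) and cells (at least 500 UMIs and 100 genes) were compared within each library as ratios of CPM, for genes with at least 50 UMIs over both pools, with 0.5 UMI added for log2 values and 2-fold as the threshold. Intervals are exact (Clopper-Pearson on the split of UMIs, 95%). Folds against 0 use a floor of 3 counts over the pool. With 1 library per genotype no test was made. Lengths and sequences came from GENCODE vM39 (GRCm39), which matched 6304 of 6480 genes by symbol. The code was tested on simulated data with matplotlib 3.10.9, scipy 1.17.1, numpy 2.4.6 and pandas 2.3.3 under Python 3.11.15.

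The members, the 25 gene lists and the tests were chosen with earlier results of these data known. Named genes are Park7, the 12 highest and 10 lowest in both libraries, the 4 highest and 4 lowest of each, the highest and lowest of each list, the 4 largest differences in each direction, and genes singled out earlier. Other mitochondrial, histone, long and gene-model genes, S100a8, Enpp2, Camk2a and Hsp90b1 were named after their values were seen. Of 14 alternative settings, 12 were planned and 2 were added after seeing the data, besides checks that left out single cells, barcodes or genes.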

Additional observations from a re-analysis of the deposited data

Results flagged for a closer look

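The choroid plexus and neutrophil lists, with intervals that leave out equality in each library, and Ttr, called past 2-fold in each, went in opposite directions in the 2 libraries. The difference was not tested because each genotype has 1 library. For the choroid plexus list the log2 ratio of summed levels outside cells to cells was 2.98 in WT LPS but -1.33 in KO LPS, which differ by 4.31. For its leading gene Ttr it was -1.42 and 3.23, a difference of 4.65. In KO LPS 1 cell held 646 of the 710 Ttr UMIs of cells, and without it and 2 empty barcodes that differ from its barcode by 1 base the ratio of Ttr was 2.71 (1.95 to 3.79) and that of the choroid plexus list 2.57 (1.91 to 3.48), on the same side as in WT LPS. For the neutrophil list the values were -0.53 and 0.58, a difference of 1.10, and S100a8 and S100a9, which were higher outside cells in WT LPS, had no UMI in KO LPS. All KO LPS UMIs of that list came from Csf3r. Its ratio was 0.690 (0.504 to 0.935) in KO LPS and 0.837 (0.612 to 1.12) in WT LPS, so that the list values rest on different genes.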

How the results depend on the processing

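No paired analysis was possible because each genotype had 1 library and the comparison was between barcodes of the same library, and for the same reason no replicate could be left out. The 4 genes higher outside cells in both libraries stayed past 2-fold under each of the 14 alternatives but that of empty droplets of 1 to 50 UMIs, under which Hist1h1e in WT LPS had 0.17. That setting left WT LPS 333 empty barcodes with 14354 UMIs, against 1989011 in cells. A gene near the minimum of 50 UMIs then rested on very few UMIs outside cells or none, where the 0.5 UMI added weighs most. The setting gave WT LPS 1381 genes higher and 809 lower, and 32 genes lower in both libraries. It gave log2 ratios of 0.36 for Cmtm7, 0.35 for Shmt2 and 0.37 for Gm8225 in WT LPS. These 3 changed sign only through the 0.5 UMI added to each sum, since Shmt2 and Gm8225 had no UMI outside cells. A minimum of 20 UMIs over both pools gave 111 genes higher and 421 lower in KO LPS, 253 higher in WT LPS, and 16 higher and 175 lower in both. A mean level of at least 100 CPM gave 34 higher and 271 lower in WT LPS, 46 lower in KO LPS and 31 lower in both. Totals without mitochondrially encoded genes gave 246 higher in WT LPS and 33 lower in both. Centring gave 339 higher and 842 lower in WT LPS, and 8 higher and 29 lower in both. Weighting each barcode alike gave 40 higher and 135 lower in KO LPS. A threshold of 1.5-fold gave 104 higher and 322 lower in KO LPS, 592 higher and 2235 lower in WT LPS, and 29 higher and 186 lower in both. Added after seeing the data, empty droplets of 51 to 100 UMIs gave 45 higher and 187 lower in KO LPS and 7 higher in both, and at least 20 UMIs expected outside cells gave 40 higher and 575 lower in WT LPS. The other counts lay within 1.5 times. The looser filter and threshold admit more genes and the stricter ones fewer by construction, and the cause of the other changes was not tested. Of the values of single genes and lists, 1489 stayed within the interval of the main value, 248 left it and 3, those named above, turned from past 2-fold to the other sign. A further 48 changed sign from a main value under 2-fold, 37 of genes and 11 of lists, among them the splicing and chaperone lists under centring.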

Other observations

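The barcodes between empty droplets and cells, which the main comparison did not use, held a few profiles of other cells. Of 4302 such barcodes in WT LPS, 19 held UMIs of the erythroid list, 318 in all, and 297 of them lay in 1 barcode of 388 UMIs, whereas the empty droplets and the cells of that library held 6 UMIs each. The choroid plexus list had 158 UMIs in 48 of these barcodes, of which 92 lay in 1 barcode of 278 UMIs. The 443 barcodes between both pools of KO LPS held no erythroid UMI and 24 choroid plexus UMIs in 23 barcodes, with at most 2 in any.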
